A study of Mus musculus with 2 samples.

Results

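Pdx1, Nkx6-1, Nkx2-2, Neurod1, Pax6, Isl1, Foxa2 and Hhex are transcription factors that set up and maintain the endocrine lineages of the pancreas, and their messenger RNAs were followed across the hormone classes of a wild-type mouse islet library. The 8 genes were chosen by symbol, and all 8 were present among the 27998 genes of the deposited matrix. The library came from islets of wild type (WT) male mice aged 8 weeks that had been fasted for 12 hours, and it was made with a 10x Genomics droplet kit that counts unique molecular identifiers (UMIs) from the 3′ end of messenger RNA. The labels do not give the number of mice or their strain. Islets of mice with a beta cell-specific miR-203 transgene, the other group of the study, were not analysed here, so no comparison of genotypes was made. With 1 library there were no replicates and no tests. Intervals in brackets are exact 95% Poisson intervals for counts and exact 95% binomial intervals for shares, and they cover counting error only.

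These factors act in sequence and in combination. In the mouse embryo Pdx1 and Foxa2 are active in the pancreatic epithelium, Neurod1, Nkx2-2, Pax6 and Isl1 act in endocrine precursors and their progeny, and Nkx6-1 and Hhex are linked in the mature islet to beta and to delta cells. Beta cells secrete insulin, alpha cells glucagon (Gcg), delta cells somatostatin (Sst) and PP cells pancreatic polypeptide (Ppy), and adult cells of each kind keep a set of the developmental factors.

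Barcodes with at least 5610 UMIs and 500 genes numbered 4547. By hormone share alone, 3261 were grouped as beta (insulin genes at least 30% of UMIs), 471 as alpha (Gcg at least 8%), 149 as delta (Sst at least 3%) and 117 as PP (Ppy at least 8%), and 549 met no limit. Of these 549, 66 carried macrophage markers and 115 endothelial markers, which served as classes outside the endocrine lineage. No member was used to make a class. Levels are given as counts per 1000000 UMIs outside 7 hormone genes, written CPM, since hormones took 56.7% of all UMIs in beta and 29.8%, 23.1% and 44.3% in alpha, delta and PP barcodes. The median barcode held 10350 non-hormone UMIs in beta, 10595 in alpha, 7232 in delta and 10378 in PP barcodes. Leaving out the hormones that made the classes, 7 of 8 beta markers were highest in beta, 5 of 8 alpha markers in alpha and 4 of 5 delta markers in delta barcodes, Hhex not counted. Of 4 PP markers other than Ppy, Pyy was highest in PP barcodes and the other 3 were not, so that class is named by its Ppy limit alone. The labels' preparation text describes a sort of goblet cells, but 4 goblet markers summed to at most 5.51 CPM of all UMIs in any class.

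The bases just before the annotated start of Pdx1, Isl1 and Hhex are shown because Pdx1 stood high in beta and delta barcodes, and Isl1 and Hhex were at their highest in delta barcodes. They come from RefSeq (GRCm38.p6) and end at the base before the GENCODE gene start. Capitals mark matches, on either strand, to CAGNTG (bound by NEUROD1 and related factors) or to CCAAT.
Pdx1, chr5:147269847-147269958, plus strand: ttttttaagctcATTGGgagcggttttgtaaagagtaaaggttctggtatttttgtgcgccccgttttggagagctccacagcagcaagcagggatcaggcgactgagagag
Isl1, chr13:116309690-116309938, minus strand: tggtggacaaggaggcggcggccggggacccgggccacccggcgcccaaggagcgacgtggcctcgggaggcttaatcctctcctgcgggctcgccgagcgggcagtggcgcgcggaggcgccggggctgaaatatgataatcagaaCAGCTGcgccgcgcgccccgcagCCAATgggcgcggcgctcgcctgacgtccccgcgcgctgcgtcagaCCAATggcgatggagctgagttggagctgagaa
Hhex, chr19:37434591-37434809, plus strand: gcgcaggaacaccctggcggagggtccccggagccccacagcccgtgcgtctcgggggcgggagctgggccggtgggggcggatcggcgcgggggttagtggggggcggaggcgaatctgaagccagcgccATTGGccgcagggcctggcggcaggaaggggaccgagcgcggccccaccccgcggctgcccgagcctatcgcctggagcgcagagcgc
All 8 members had a RefSeq window, 11 windows in all because Pax6 had 2 starts and Foxa2 had 3. In the full 250 bases before each start, CAGNTG was found for Pdx1, Nkx2-2 and Isl1, and in 44.8% of 32851 windows genome-wide. CCAAT was found in windows of Pdx1, Pax6, Isl1, Foxa2 and Hhex, and in 33.8% of all windows. Neither TAATTA, a core of homeodomain sites, nor TGTTTAC, a forkhead core, was found in a member window, against 4.84% and 3.17% of all windows. The windows of Isl1 and Hhex held 33 and 32 CpG dinucleotides, and that of Pdx1 held 10, against a median of 6. GC content was 71.2% for Isl1, 76.0% for Hhex and 54.8% for Pdx1, against a median of 52.4%. These matches describe the letters in the windows and nothing about binding.

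Each of the 7 members other than Hhex had a higher level in every hormone class than in macrophage barcodes, although the intervals overlapped for Pdx1 in alpha and for Nkx6-1 in alpha and delta barcodes. The 8 members differed in how far their levels moved between hormone classes. Pdx1, Nkx6-1 and Hhex differed more than 2-fold between some of the hormone classes. Nkx2-2, Neurod1, Pax6 and Foxa2 differed by less than 2-fold, relative to the median gene, in all 6 pairs of classes. Isl1 also stayed within 2-fold, but its level in delta barcodes came close to that line against beta. Neurod1 came close as well, with log2 ratios of 0.92 in beta over delta and 0.86 in alpha over delta. In delta over PP, Neurod1 was at -0.79 and Nkx2-2 at -0.78.

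**Figure D1:**
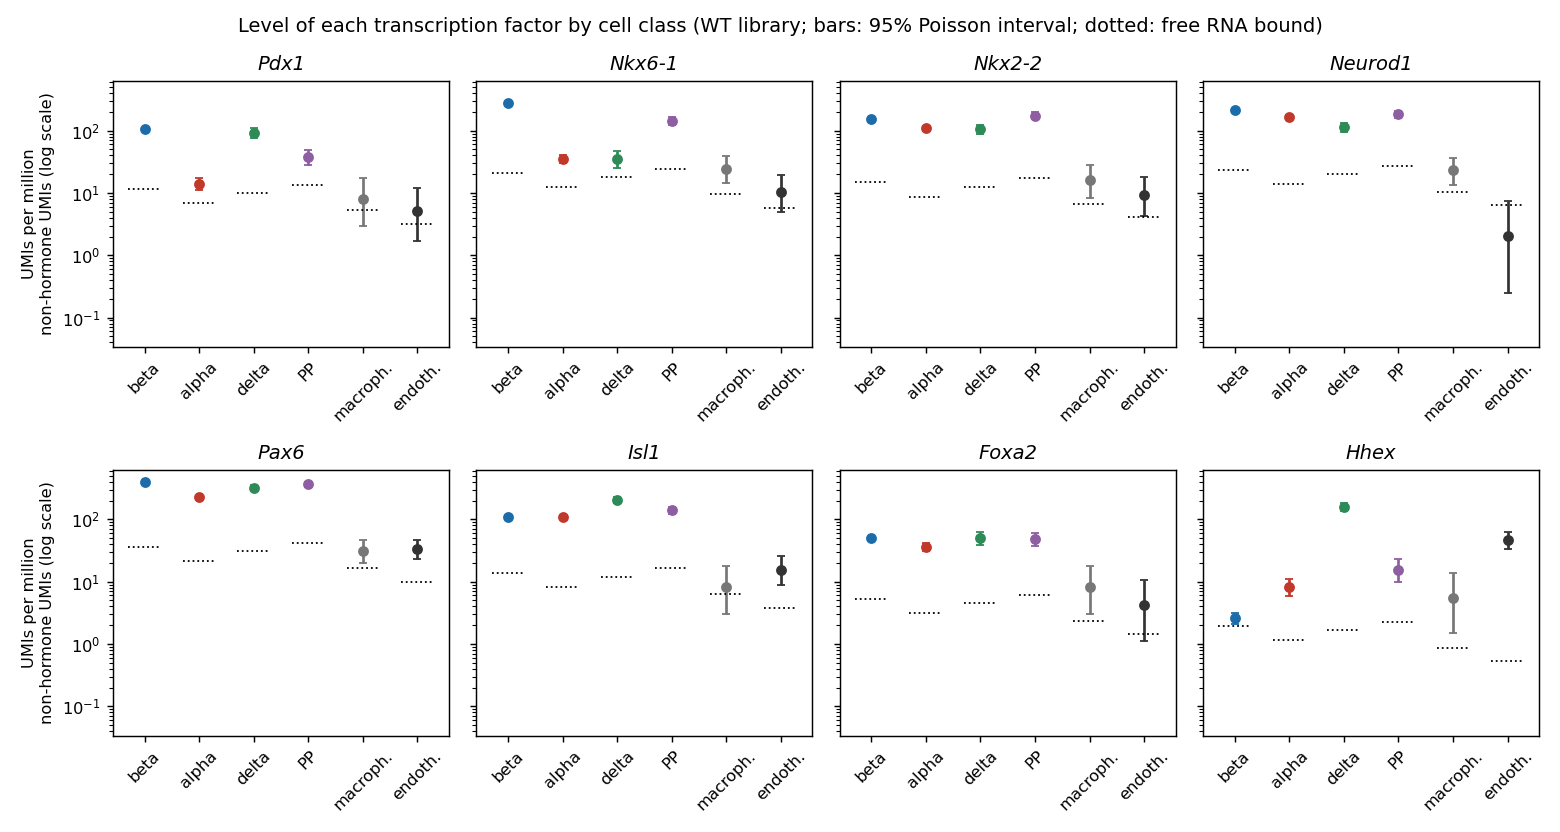
CPM of non-hormone UMIs (log axis) of the 8 members in beta, alpha, delta, PP, macrophage and endothelial barcodes of 1 WT library, with exact 95% Poisson intervals. Pdx1 was at 105 CPM in beta and 14.1 in alpha barcodes, and Hhex at 158 in delta and 2.58 in beta barcodes.

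Pdx1, the homeodomain factor needed for pancreas formation and for insulin gene activity in beta cells, lies on chromosome 5 (147269959 to 147275848, plus strand, GRCm38). It had 105 CPM in beta (102 to 109), 14.1 in alpha (11.1 to 17.6), 92.8 in delta (77.1 to 111) and 37.4 in PP barcodes (28.0 to 48.9), against 8.13 in macrophage and 5.18 in endothelial barcodes. Beta and delta barcodes formed the upper group with overlapping intervals, PP barcodes lay between, and the alpha interval overlapped the macrophage interval. Relative to the median gene, the log2 ratio was 2.56 for beta over alpha (2.24 to 2.91), 1.38 for beta over PP (0.99 to 1.80) and 0.16 for beta over delta (-0.10 to 0.43). Alpha over delta was -2.41 (-2.84 to -1.99), alpha over PP -1.17 (-1.69 to -0.64) and delta over PP 1.24 (0.76 to 1.73). In each pair with PP barcodes the interval of Pdx1 reached inside the 2-fold line. RNA outside cells could have supplied up to 6.88 CPM of the Pdx1 level in alpha barcodes and up to 11.7 CPM of that in beta barcodes, by bounds from the hormones of other cell types in each class. The bound was 10.0 of the 92.8 CPM in delta and 13.6 of the 37.4 CPM in PP barcodes. An antisense gene, Plut (2210019I11Rik in the files), overlaps the start of Pdx1. It had 38.3 CPM in beta, 1.63 in alpha, 4.53 in delta and 5.65 in PP barcodes, so delta barcodes were near beta barcodes for Pdx1 and far below them for its antisense partner. Whether counting used strand is not given in the sources used here, so reads shared between the 2 genes cannot be told apart.

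Nkx6-1, a homeodomain factor of beta cell identity and insulin secretion, lies on chromosome 5 (101658139 to 101664996, minus strand). Its level was 277 CPM in beta (272 to 282), 35.3 in alpha (30.5 to 40.6), 34.7 in delta (25.4 to 46.3) and 143 in PP barcodes (124 to 164), against 24.4 in macrophage and 10.4 in endothelial barcodes. Beta stood above PP barcodes, and alpha and delta barcodes did not differ beyond counting error and overlapped the macrophage interval. The log2 ratio was 2.64 for beta over alpha (2.43 to 2.85), 2.97 for beta over delta (2.55 to 3.42) and 0.85 for beta over PP (0.65 to 1.06). Alpha over PP was -1.78 (-2.07 to -1.49), and delta over PP was -2.11 (-2.61 to -1.64). In delta over PP, Pdx1 was higher and Nkx6-1 lower, both past 2-fold. With the UMI minimum doubled, which left 45 delta barcodes, Pdx1 in delta barcodes was 66.2 CPM and its ratio to PP barcodes fell short of 2-fold at 0.76, while Nkx6-1 in delta barcodes was 54.9 CPM. By the same bounds as for Pdx1, free RNA could have supplied up to 12.5 of the 35.3 CPM of Nkx6-1 in alpha barcodes and up to 18.2 of the 34.7 CPM in delta barcodes.

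Insulin RNA moved with part of the Nkx6-1 signal. The 15 delta barcodes with at least 5% insulin had 103 CPM Nkx6-1 (63.1 to 159.5; 20 UMIs), against 23.0 (15.01 to 33.7) in the 134 delta barcodes with less. In PP barcodes the 20 with at least 5% insulin had 197 CPM (148 to 258), against 130 (109.8 to 152) in the 97 with less, so the PP level stood above the delta level in barcodes low in insulin too. In alpha barcodes that also met the Ppy limit, Nkx6-1 was 40.6 CPM (22.7 to 66.9; 35 barcodes), against 34.8 in the 423 alpha barcodes that met only the Gcg limit. Pdx1 in PP barcodes was 63.2 CPM (36.8 to 101.3) with at least 5% insulin and 31.4 (22.0 to 43.4) with less, and these intervals overlapped. In delta barcodes Pdx1 was 77.5 CPM with at least 5% insulin and 95.4 with less. Whether the barcodes with insulin held more than 1 cell was not tested.

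Hhex, a homeodomain factor required for delta cell differentiation in the mouse, lies on chromosome 19 (37434810 to 37440731, plus strand). It had 2.58 CPM in beta (2.08 to 3.16), 8.14 in alpha (5.94 to 10.9), 158 in delta (138 to 181) and 15.5 in PP barcodes (9.73 to 23.5), against 5.42 in macrophage and 46.7 in endothelial barcodes (34.0 to 62.4). Delta barcodes were highest, and endothelial barcodes came next with an interval apart from both delta and PP barcodes. The log2 ratio was -5.97 for beta over delta (-6.34 to -5.61), -3.98 for alpha over delta (-4.47 to -3.50) and 3.28 for delta over PP (2.64 to 3.98). In beta over alpha, beta over PP and alpha over PP, Hhex was under 20 CPM in both classes, the floor for a call, and no ratio was read. Free RNA could have supplied up to 1.93 of the 2.58 CPM in beta barcodes and up to 1.66 of the 158 CPM in delta barcodes, so the size of the beta over delta ratio rests on a beta level near that bound. Sst RNA moved with the low level in alpha barcodes. The 14 alpha barcodes that also met the Sst limit held 16 of the 45 Hhex UMIs of the alpha class, at 68.0 CPM (38.8 to 110.4). Taking barcodes of a single hormone, an alternative chosen after seeing the data, gave 1.93 CPM in beta, 0.835 in alpha and 184 in delta barcodes. The endothelial-marker barcodes also carried mesenchymal markers, which summed to 2958 CPM of all UMIs there and at most 9.84 in the 4 hormone classes. The part of those cells in the Hhex level of the endothelial class was not tested.

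Isl1, a LIM-homeodomain factor needed for the survival and maturation of endocrine cells, lies on chromosome 13 (116298281 to 116309689, minus strand). Its level was 109 CPM in beta (105 to 112), 110.3 in alpha (102 to 119), 205 in delta (182 to 231) and 139.8 in PP barcodes (121 to 161), against 8.13 in macrophage and 15.6 in endothelial barcodes. Delta barcodes were highest, PP barcodes second, and the CPM of alpha and beta barcodes did not differ beyond counting error. Relative to the median gene, however, beta was lower than alpha, with a log2 ratio of -0.36 (-0.48 to -0.23). The log2 ratio of beta over delta was -0.94 (-1.12 to -0.76), short of 2-fold, and alpha over delta was -0.59. Beta over delta passed 2-fold under 5 alternatives, between -1.02 and -1.08.

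Neurod1, a basic helix-loop-helix factor of endocrine differentiation that also acts on the insulin promoter, had 216 CPM in beta (212 to 221), 165 in alpha (155 to 176), 112 in delta (95.1 to 132) and 184 in PP barcodes (163 to 208), against 23.0 in macrophage and 2.07 in endothelial barcodes. Its lowest endocrine level was in delta barcodes, and the log2 ratio of beta over delta, 0.92 (0.68 to 1.16), was short of 2-fold. It reached 1.00 to 1.06 under 2 alternatives, which left out barcodes of more than 1 hormone limit or took off free RNA. Neurod1 lies on chromosome 2 (79452521 to 79456751, minus strand) inside the annotated span of Cerkl on the same strand. Cerkl had 16.9 CPM in beta barcodes, and reads of the shared span cannot be assigned to 1 gene.

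Nkx2-2, a homeodomain factor of beta cell identity that endocrine cells of other types also express, had 153 CPM in beta (149 to 157), 109 in alpha (100.3 to 118), 106 in delta (88.9 to 125) and 173 in PP barcodes (152 to 196), against 16.3 in macrophage and 9.33 in endothelial barcodes. By CPM, PP and beta barcodes overlapped, as did alpha and delta barcodes below them. Relative to the median gene, the log2 ratio of beta over alpha was only 0.15 (0.03 to 0.28). It was 0.51 for beta over delta (0.27 to 0.76) and -0.29 for beta over PP (-0.47 to -0.10). Alpha over delta was 0.35 (0.08 to 0.63), alpha over PP -0.43 (-0.65 to -0.21) and delta over PP -0.78 (-1.09 to -0.48). The Nkx2-2 gene on chromosome 2 (147177546 to 147194243, minus strand) overlaps the antisense genes Nkx2-2os, with 3 UMIs in all beta barcodes, and 6430503K07Rik, with 10.3 CPM there.

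Pax6, a paired-domain factor that drives hormone genes in alpha and beta cells, had 394 CPM in beta (387 to 400.4), 228 in alpha (216 to 241), 323 in delta (293 to 355) and 367 in PP barcodes (336 to 400.03), against 31.2 in macrophage and 33.2 in endothelial barcodes. Alpha barcodes were lowest of the 4. The log2 ratio of beta over alpha was 0.45 relative to a median gene that itself stood at 0.34. Pax6 lies on chromosome 2 (105668900 to 105697364, plus strand), and its antisense partner Pax6os1 had 22.8 CPM in beta barcodes.

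Foxa2, a forkhead factor that opens chromatin in endoderm and regulates Pdx1, had 50.4 CPM in beta (48.1 to 52.8), 36.2 in alpha (31.3 to 41.5), 49.8 in delta (38.5 to 63.4) and 48.0 in PP barcodes (37.3 to 60.9), against 8.13 in macrophage and 4.15 in endothelial barcodes. Beta, delta and PP barcodes could not be ordered within their intervals, and the delta and PP intervals also overlapped that of alpha barcodes. Foxa2 lies on chromosome 2 (148042877 to 148046969, minus strand).

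In beta over alpha, 2 of the 7 members at the floor were past 2-fold, Pdx1 and Nkx6-1, both higher, where 15.2% of 6709 genes were past it (7.83% higher and 7.42% lower). In beta over delta, Nkx6-1 was higher and Hhex lower, 2 of 8 members, against 14.7% of genes (7.19% higher and 7.53% lower). In beta over PP only Pdx1 was past 2-fold, 1 of 7, against 12.0% of genes (6.35% higher and 5.61% lower), a share near the background. With so few members, the counts in beta over alpha and beta over delta are not read as an excess over the background either. In alpha over delta, Pdx1 and Hhex were lower, 2 of 8, against 8.33% of genes (3.4% higher and 4.93% lower). In alpha over PP, Pdx1 and Nkx6-1 were lower, 2 of 7, against 3.08% of genes (1.45% higher and 1.63% lower). In delta over PP, Pdx1 and Hhex were higher and Nkx6-1 lower, 3 of 8, against 6.25% of genes (3.86% higher and 2.39% lower). By point values, Pdx1 was thus past 2-fold in 5 of 6 pairs, Nkx6-1 in 4 of 6 and Hhex in each of the 3 pairs where it reached the floor. The other 5 members were past it in none. The intervals of Pdx1 in the pairs with PP barcodes reached inside the 2-fold line. The median log2 ratio of the members, centred on the median gene, was between -0.43 (alpha over PP) and 0.21 (beta over delta). The median gene itself stood at 0.34 in beta over alpha, 0.03 in beta over delta, 0.11 in beta over PP, -0.31 in alpha over delta, -0.23 in alpha over PP and 0.07 in delta over PP before centring. The pairs share classes, so their values are not independent.

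**Figure D2:**
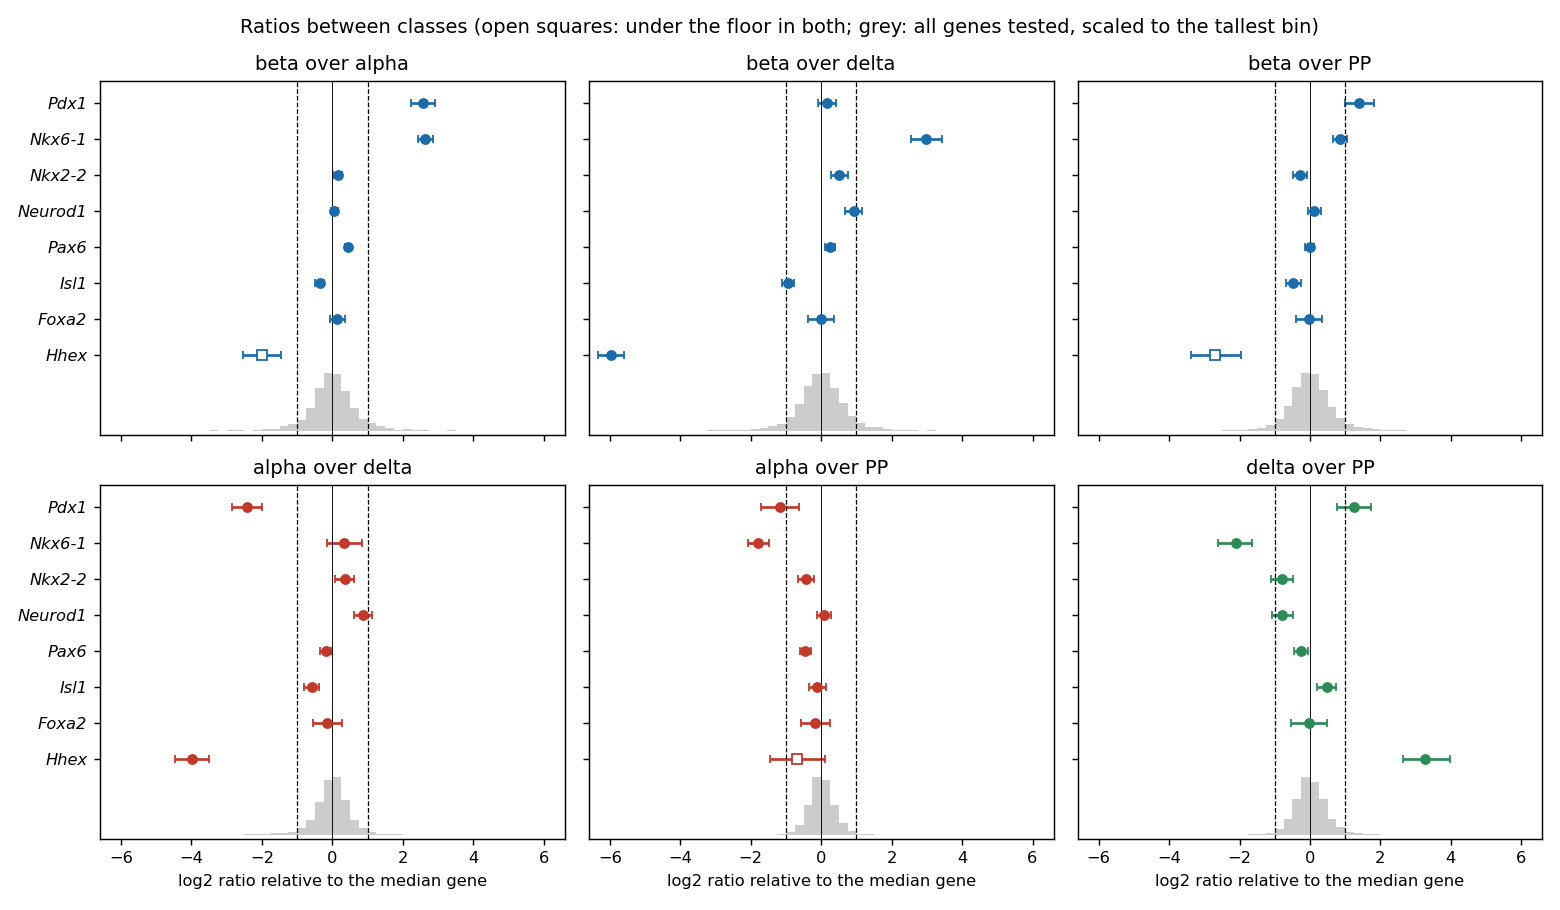
log2 ratio of each member relative to the median gene in the 6 pairs of hormone classes, numerator class named first, with exact 95% conditional intervals and the 2-fold lines. The point values of Pdx1, Nkx6-1 and Hhex lie past a line in at least 3 pairs each, and those of the other 5 members lie between the lines in all 6.

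The share of cells in which a member was seen gave the same picture at equal depth. Each cell was thinned to 4000 non-hormone UMIs, which left out 83 beta and 2 PP barcodes and no others. Pdx1 was seen in 33.4% of beta (31.7 to 35.1), 5.52% of alpha (3.64 to 7.98), 25.5% of delta (18.7 to 33.3) and 14.8% of PP barcodes (8.85 to 22.6), against 3.03% of macrophage and 1.74% of endothelial barcodes. The expected share without the random draw was 32.8% in beta and 33.7% in delta barcodes for Pdx1, so the lower drawn share in delta barcodes is that of 1 draw. In barcodes of a single hormone, the drawn share of Pdx1 was 7.81% in PP (64 barcodes) and 4.22% in alpha barcodes. Nkx6-1 was seen in 63.3% of beta (61.6 to 65.0), 9.34% of alpha (6.87 to 12.3), 11.4% of delta (6.79 to 17.6) and 44.3% of PP barcodes (35.1 to 53.9), against 6.06% of macrophage barcodes (1.68 to 14.8). The macrophage interval, from 4 of 66 barcodes, overlapped those of alpha and delta barcodes. The expected share of Nkx6-1 without the draw was 12.4% in alpha and 9.21% in delta barcodes, so the order of these classes is not read. Hhex was seen in 0.818% of beta, 1.70% of alpha, 47.7% of delta (39.4 to 56.0) and 5.22% of PP barcodes, against 3.03% of macrophage and 17.4% of endothelial barcodes (10.96 to 25.6). Isl1 was seen in 30.7% of beta, 30.8% of alpha, 51.7% of delta and 42.6% of PP barcodes. Pax6, the member seen most often, was found in 75.0% of beta, 53.3% of alpha, 62.4% of delta and 69.6% of PP barcodes. Without thinning, Pdx1 was seen in 62.6% of beta, 14.6% of alpha, 55.0% of delta and 35.9% of PP barcodes, and Nkx6-1 in 88.1%, 29.3%, 18.8% and 66.7%.

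**Figure D3:**
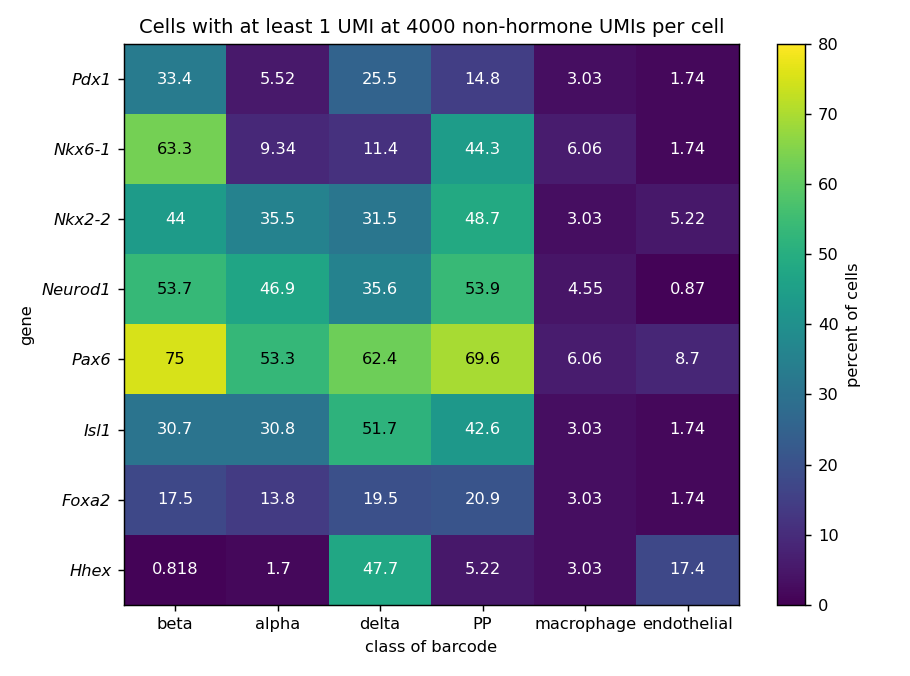
Share of cells (percent) with at least 1 UMI of each member after thinning every cell to 4000 non-hormone UMIs, by class. Nkx6-1 was seen in 63.3% of beta and 44.3% of PP barcodes, and Hhex in 47.7% of delta and 17.4% of endothelial barcodes.

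A beta barcode held on average 3.18 of the 8 members at that depth, against 1.97 in alpha, 2.85 in delta, 3.0 in PP, 0.318 in macrophage and 0.391 in endothelial barcodes. No member was seen in 1.64% of beta and 9.55% of alpha barcodes, against 75.8% of macrophage and 67.8% of endothelial barcodes. Among beta barcodes, pairs of members were seen together about as often as the product of their single shares gives. Pdx1 and Nkx6-1 were both seen in 688 of 3178 beta barcodes where the product gives 672, a ratio of 1.02. The pairs without Hhex had ratios between 0.984 (Nkx2-2 with Isl1) and 1.06 (Nkx6-1 with Foxa2). In delta barcodes Isl1 and Hhex were both seen in 39 of 149, where the product gives 36.7. At counts this sparse, a small departure from the product is not read as a relation between members.

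**Figure D4:**
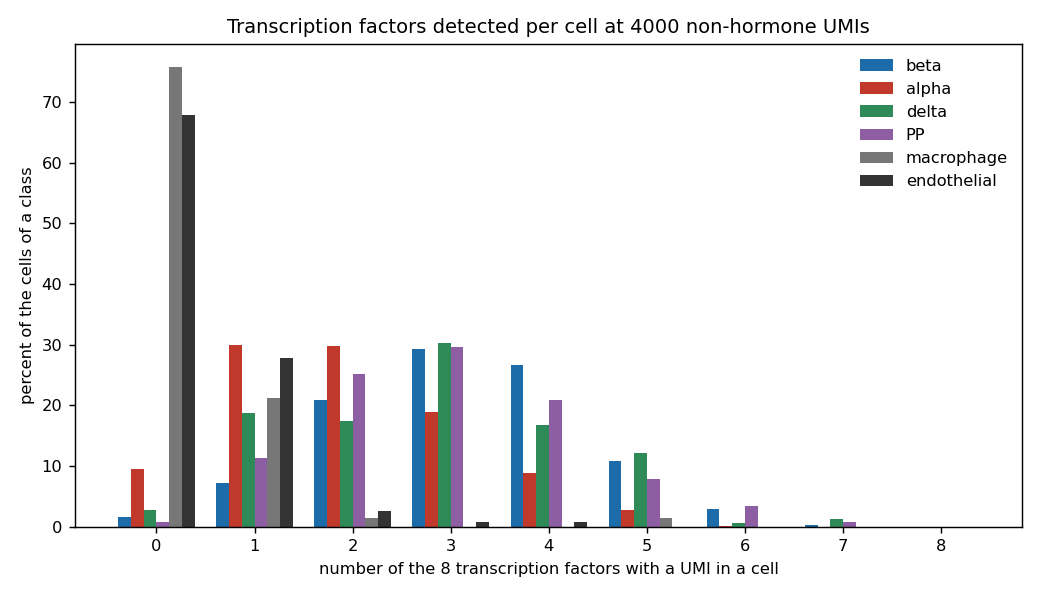
Number of the 8 members with at least 1 UMI per cell after thinning to 4000 non-hormone UMIs, as a percent of the cells of each class. Endocrine barcodes average 1.97 to 3.18 members, against 0.318 in macrophage and 0.391 in endothelial barcodes.

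Within the beta class, Pdx1 and Isl1 were higher in barcodes with more insulin. In bins of 30 to 40%, 40 to 50%, 50 to 60% and 60% or more insulin, Pdx1 had 88.5, 97.3, 109 and 142 CPM. Isl1 had 95.04, 96.4, 111 and 156 CPM over the same bins. Neurod1 ran the other way, with 249, 216, 211 and 186 CPM. Nkx6-1 had 257, 286, 277 and 282 CPM, and Pax6 had 399, 384, 397 and 404. Nkx2-2 had 154, 159, 154 and 131 CPM, and Foxa2 had 49.7, 43.7, 52.6 and 62.8 CPM. Relative to the median gene, the log2 ratio of the top over the bottom bin was 0.82 for Pdx1 (0.65 to 0.99), 0.85 for Isl1 (0.68 to 1.01) and -0.29 for Neurod1 (-0.41 to -0.16). It was 0.47 for Foxa2 (0.23 to 0.72), 0.27 for Nkx6-1 (0.16 to 0.38), 0.15 for Pax6 (0.06 to 0.25) and -0.09 for Nkx2-2 (-0.24 to 0.065). The ratio of Neurod1 was thus no larger in size than that of Foxa2 and close to that of Nkx6-1. None of the 7 members at the floor was past 2-fold there, against 4.13% of all genes. The ratio of Pdx1 stood at percentile 92.8 among genes and that of Isl1 at 93.5. Foxa2 stood at percentile 80.2, Nkx6-1 at 69.2, Pax6 at 61.8, Nkx2-2 at 43.0 and Neurod1 at 26.4. The median gene itself stood at -0.14 before centring. Hhex had 6.42 CPM in the lowest bin and 1.62 to 2.06 in the others. Sst RNA moved with it, at 1106 CPM of all UMIs in the lowest bin, where 16 of 473 barcodes had at least 1% Sst, against 174 to 343 in the others. Median total UMIs also differed between bins, with 34322 in the top bin and 21534 in the bottom bin, and the part of depth in these values was not tested.

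**Figure D5:**
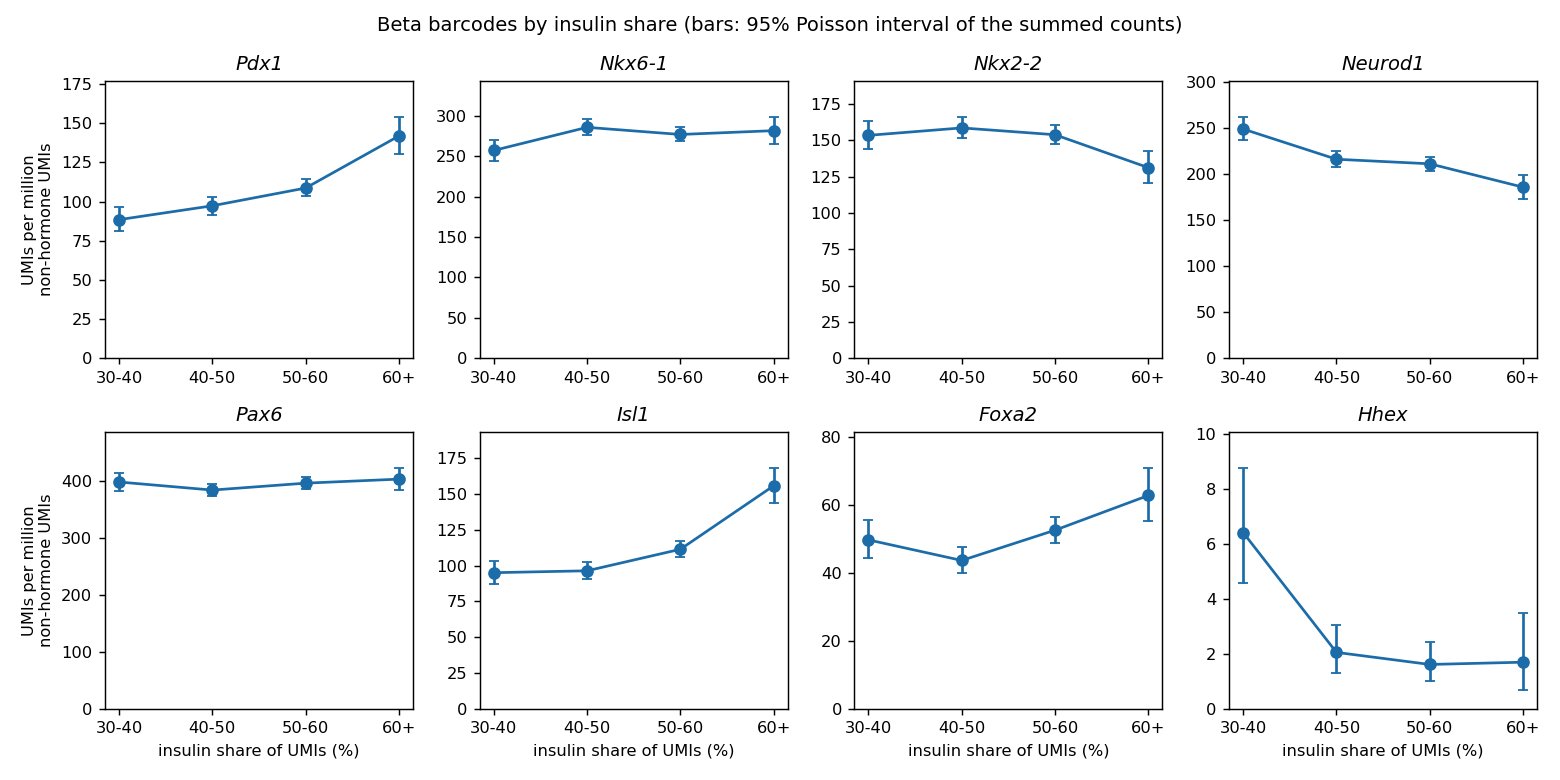
CPM of non-hormone UMIs of each member in beta barcodes by insulin share of all UMIs, with exact 95% Poisson intervals. Pdx1 and Isl1 were at 142 and 156 CPM in the top bin and at 88.5 and 95.04 in the bottom bin, and Neurod1 was at 186 in the top bin and 249 in the bottom bin.

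Barcodes that met no hormone limit and carried neither macrophage nor endothelial markers numbered 368, with a median insulin share of 20.8%. By the hormone bound, free RNA could have supplied up to 51.7% of their UMIs. In those with 20 to 30% insulin (196 barcodes), Pdx1 was at 78.9 (68.8 to 90.1) and Nkx6-1 at 224 CPM, both below the beta level. Pax6 was at 467 (442 to 493), Nkx2-2 at 175 (160 to 192) and Hhex at 11.9 CPM (8.22 to 16.8), all above it. The intervals of Neurod1, Isl1 and Foxa2 overlapped those of beta barcodes. That of Pdx1 overlapped the beta bin of 30 to 40% insulin (81.1 to 96.3). In the 83 with under 5% insulin, Pdx1 was at 28.8, Nkx6-1 at 61.9 and Hhex at 63.6 CPM, with Sst RNA at 6932 CPM of all UMIs.

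For each member, the genes of most similar profile over the 4 hormone classes were found by the distance between log2 levels centred on their own mean, among 7267 genes at the floor. Frzb, a secreted Wnt antagonist, and Sdk2, a cell adhesion protein, were nearest to Pdx1 at distances of 0.19 and 0.25. Frzb had 213 CPM in beta, 24.8 in alpha, 171 in delta and 64.9 in PP barcodes. Chrm3, the muscarinic acetylcholine receptor through which vagal signals raise insulin secretion, and Pag1, a membrane adaptor, were nearest to Nkx6-1 at 0.39 and 0.45. Gap43, a growth-cone protein of neurons, and Dpp6, a potassium channel partner, were nearest to Hhex at 0.42 and 0.46, with 109 and 117 CPM in delta barcodes. Irf9 and Hook1 were nearest to Nkx2-2, Ergic1 and Fryl to Neurod1, Taf1 and Mmgt2 to Pax6, Cbarp and Cnep1r1 to Isl1, and Spcs1 and Phf1 to Foxa2. Their distances were 0.025 to 0.106, and 67 to 811 genes lay within 0.25 of each of these 5 members, against 2 for Pdx1 and none for Nkx6-1 or Hhex. Of the 7267 genes, 67 lay that near to Neurod1, 121 to Isl1, 141 to Nkx2-2, 299 to Pax6 and 811 to Foxa2. The 5 members that stayed within 2-fold thus had more genes of near profile than Pdx1, Nkx6-1 or Hhex. For most of the 5 these were a small part of all genes compared. Among the members themselves, Pax6 and Foxa2 had the nearest profiles, at a distance of 0.28, and Nkx6-1 and Hhex the farthest, at 6.04.

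A list of 52 other transcription factors of the pancreas was read in the same way. In beta over alpha, 28 of the 52 reached the floor, 6 were past 2-fold higher and 9 lower. Of all genes at the floor, 7.83% were higher and 7.42% lower there. Mlxipl, which encodes the glucose-responsive factor ChREBP, had 248 CPM in beta and 38.0 in alpha barcodes, and Glis3, a zinc-finger regulator of insulin transcription, had 38.0 and 12.5. Irx1, a homeodomain factor of the alpha lineage, had 1.69 CPM in beta and 67.3 in alpha barcodes. In beta over delta, 1 of 28 was higher and 7 were lower, against 7.19% and 7.53% of all genes. Mlxipl and Myt1 had the highest ratios, with Mlxipl at 248 CPM in beta and 87.5 in delta barcodes and Myt1, a zinc-finger factor of endocrine differentiation, at 33.1 and 16.6. Neurog3, the factor that starts endocrine differentiation in the embryo, had 0.803 CPM in beta and 33.2 in delta barcodes, where its 44 UMIs came from 30 of 149 barcodes. Sox9, a factor of progenitor and duct cells, had 0.499 CPM in beta and 24.9 in delta barcodes, from 22 barcodes. In alpha over delta, 5 of 28 were higher and 3 were lower, against 3.4% and 4.93% of all genes. The lowest ratios there were for Sox9 (2.35 CPM in alpha and 24.9 in delta barcodes) and Neurog3 (3.62 CPM in alpha and 33.2 in delta barcodes). The median log2 ratio of the listed factors at the floor was -0.25 for beta over alpha, -0.29 for beta over delta and -0.13 for alpha over delta, beside 0.15, 0.21 and -0.17 for the members.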

How the data were processed

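One single-cell RNA-seq library of WT mouse islets was analysed; the other library was not analysed here. The deposited values are raw UMI counts for every gene in every droplet, and a table pairs gene identifiers with symbols. FastQC, Trimmomatic and mm10 are listed per the submitters' processing notes. The sources used here do not name the program that counted UMIs, or its strand setting. The library held 118523180 UMIs over 737280 barcodes. The UMI minimum was 10% of the UMI count at percentile 99 of the top 3000 barcodes, and no doublet caller was run; 63 barcodes met more than 1 hormone limit and 192 lay within 10% of the insulin limit. A barcode over several limits took the first of beta, alpha, delta and PP.

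Counts were summed per class and divided by UMIs outside 7 hormone genes. Ratios were centred on the median gene. Calls, profile distances and the ratios printed for the alternative settings used log2(CPM + 1). The ratios and intervals of the main setting carry no pseudocount. With it, the main Pdx1 ratio of delta over PP was 1.22. A gene entered a comparison when either class reached 20 CPM. Droplets of at most 200 UMIs gave the make-up of free RNA. Ratios were tested on simulated counts, and the positions came from GENCODE vM21 (GRCm38). Named genes were all 8 members, the 2 highest and 2 lowest other factors per pair and the 2 nearest profiles per member. Some genes that this rule names are not reported here. The members, lists and limits were chosen with earlier results of these data known. Python 3.11.15, numpy 2.4.6, scipy 1.17.1 and pandas 2.3.3 were used.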

Additional observations from a re-analysis of the deposited data

How the results depend on the processing

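Each value was recomputed under other UMI minimums, stricter or single hormone limits, other totals, equal weight per cell, no barcodes above 40000 UMIs, free RNA taken off, other floors, folds, centring and thinning depths. No sign of a called ratio turned, and 576 of 585 ratios kept their side of the 2-fold line. The number of members past 2-fold in beta over delta was 4 with free RNA taken off, against 2, as Isl1 and Neurod1 crossed the line. It was 1 in alpha over PP with a floor of 50 and 2 in beta over PP with no floor. With a fold of 1.5 it was 4 in beta over delta, 2 in beta over PP and 5 in delta over PP, and with a fold of 3 it was 0 in beta over PP and 1 in alpha over PP. The share of all genes past the line was not computed under these other settings, so these counts have no background to be read against. Isl1 in beta over delta also passed 2-fold with stricter hormone limits, equal weight per cell, no barcodes above 40000 UMIs and single-hormone barcodes, an alternative added after seeing the data. In single-hormone barcodes Nkx2-2 in delta over PP was at -1.14. Pdx1 in delta over PP fell short of 2-fold, at 0.76, with the UMI minimum doubled, which left 45 delta barcodes. Per total UMIs, hormones included, Pdx1, Nkx2-2, Neurod1, Pax6 and Foxa2 were no longer ordered as above, with beta barcodes lower in each order. Nkx6-1 kept beta first and PP second, but delta then stood above alpha barcodes. The mean number of members per cell at 2000 UMIs was 1.98 in beta, 1.14 in alpha, 1.75 in delta and 1.62 in PP barcodes. At 8000 UMIs it was 4.56, 3.11, 4.25 and 4.16. Detection rises with depth, but the sets of cells differ too. The depth of 8000 kept 2760 beta, 421 alpha, 55 delta and 87 PP barcodes, against 3249, 471, 149 and 117 at 2000. No paired analysis was possible because each genotype has 1 library. With 1 library, the spread between mice is unknown, and the small delta and PP classes limit ratios of low genes such as Hhex.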
